A study of Mus musculus with 34 samples.

Results

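The genes described here are 41 components and targets of the Hippo pathway, chosen from textbook membership with earlier results of these data known. They comprise 8 genes of the core kinase module, 8 upstream regulators, 13 YAP/TAZ target genes and 2 FOXO factors. Another 10 are the genes for YAP, TAZ, the TEAD factors and their binding partners. A member was measured where a probe set of the array was annotated to its symbol alone, which held for 40 of the 41 members among 22180 genes in all. Taok1 lay only on 2 probe sets shared by several symbols and was not used. Expression was profiled on arrays in dendritic cells (DCs), the antigen-presenting cells that activate T cells, sorted by FACS from the spleen of C57BL/6 mice.

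The genotype labelled Mst1/2-KO (Mst1/2-/-) was compared with wild type (WT) in CD8+ DCs, in CD8- DCs and in total DCs. The sorted subsets had 4 arrays in each of the 4 groups, and total DCs had 3 Mst1/2-KO and 4 WT arrays. In a first experiment with Rag1-KO mice, whose T and B cells do not mature, DCs were stimulated through CD40 with the antibody anti-CD40. It had 3 arrays of Rag1-KO p38-KO and 4 of Rag1-KO mice. A second had 2 stimulated Rag1-KO arrays, 1 stimulated WT array and 1 array of Rag1-KO DCs without the antibody. The labels give neither the promoter nor the cell type in which an allele was deleted, nor the age or sex of the mice, nor do they state that each array was a different animal. The p-values then measure the spread between these samples, which may be technical.

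In the Hippo pathway of mammals, the kinases MST1 and MST2 act with the scaffold SAV1 to activate LATS1 and LATS2, with MOB1A and MOB1B as co-activators. Active LATS kinases phosphorylate the co-activators YAP and TAZ and keep them out of the nucleus. When the pathway is off, YAP and TAZ bind TEAD transcription factors and switch on target genes such as Ccn1, Ccn2 and Ankrd1. In lymphocytes and myeloid cells, MST1 is also known for roles outside this chain, through RASSF partners, the kinases NDR1 and NDR2, and FOXO factors.

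Signals are on a log2 scale, so a difference of 1 is a doubling. The deposited values carry an additive constant for each probe set and experiment, and levels were compared only between groups of 1 experiment. The median signal of an array lay between 4.11 and 4.20. The markers of the sort followed the labels: all 8 CD8+ DC markers were higher and all 7 CD8- DC markers lower in WT CD8+ DCs than in WT CD8- DCs. Arrays have no read depth, and the number of arrays limits the precision of each value.

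The core kinase module was expressed in splenic DCs, whereas Tead1, Tead2, Tead3 and the YAP/TAZ targets Ccn1 and Ankrd1 were at background. A gene was called above background in a group when its mean exceeded the 95th percentile of 1105 olfactory receptor genes, a family not known for expression in DCs. That threshold lay between 4.26 and 4.64 in the 11 groups. By this rule 22 of the 40 members were above background in every group, 7 in some groups and 11 in none. Counted group by group, 22 to 27 of the 40 members were above it, against 45.9% to 50.8% of all genes. The shares of all genes above background in every group or in none are not given here.

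All 8 core kinase genes were above background in every group. The ranges of group means given here run over all experiments and show the span only, not a comparison between experiments. How far the additive constant shifts a gene against the threshold was not tested. Group means ranged from 7.41 to 8.51 for Stk4, which encodes MST1, and from 7.16 to 7.67 for Sav1. They ranged from 8.94 to 9.14 for Mob1a, from 7.69 to 8.08 for Mob1b, from 7.60 to 8.01 for Lats1 and from 5.81 to 6.79 for Lats2. Stk38 and Stk38l, the genes of NDR1 and NDR2, spanned 7.54 to 8.03 and 7.53 to 8.32. Stk3, which encodes MST2, was not analysed here.

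Among the 7 upstream regulators measured, 5 were above background throughout. These were Nf2, the gene of Merlin, at 5.59 to 6.14, and Taok3, a kinase that activates MST, at 8.79 to 9.01. Map4k4, a kinase that activates LATS alongside MST, lay at 7.53 to 8.81. Rassf2 and Rassf5, whose proteins bind MST through a shared helical domain, lay at 5.93 to 7.23 and 7.89 to 8.16. Wwc1 (KIBRA) was above background in no group, and its relative Wwc2 was above it in 7 of 11.

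Of the genes for YAP, TAZ, TEAD and their partners, Yap1 (5.09 to 5.52) and Vgll4 (6.96 to 7.52), whose protein competes with YAP for TEAD, were above background throughout. A second Yap1 probe set stayed below it, with a mean of 2.57 to 2.73 in the sorted groups and 2.66 in both total DC groups, so the presence of Yap1 transcript rests on 1 of 2 probe sets. With the 99th percentile of olfactory receptor genes as threshold, Yap1 was above background in no group. Wwtr1, the gene of TAZ, was above the 95th percentile in 1 group, Tead4 in 4 and Tead1, Tead2 and Tead3 in none. The angiomotin genes, whose proteins hold YAP outside the nucleus, were near the threshold: Amot was above it in 2 groups, Amotl1 in 5 and Amotl2 in 1.

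The YAP/TAZ targets split into genes that DCs expressed and genes at background. Above background in every group were Axl, a receptor tyrosine kinase (6.34 to 7.30), Crim1, a membrane protein that binds BMPs (4.73 to 5.84), Asap1, a GTPase-activating protein for Arf (9.56 to 9.83), Myof, a membrane-repair protein (5.83 to 6.62), and Dock5, an activator of Rac (8.86 to 9.64). Ccn1, Ankrd1, Ajuba, Nt5e, F3, Arhgef17 and Ptpn14 were above background in no group, with group means between 2.88 and 4.26. Ccn2 was above it in 6 groups, and a second Ccn2 probe set lay at 2.96 to 3.42 in the sorted and total DC groups. Foxo1 (7.25 to 7.71) and Foxo3 (5.09 to 5.62) were above background throughout. With the 99th percentile of olfactory receptor genes as threshold, Foxo3 was above background in no group and Crim1 in some groups only.

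**Figure D1:**
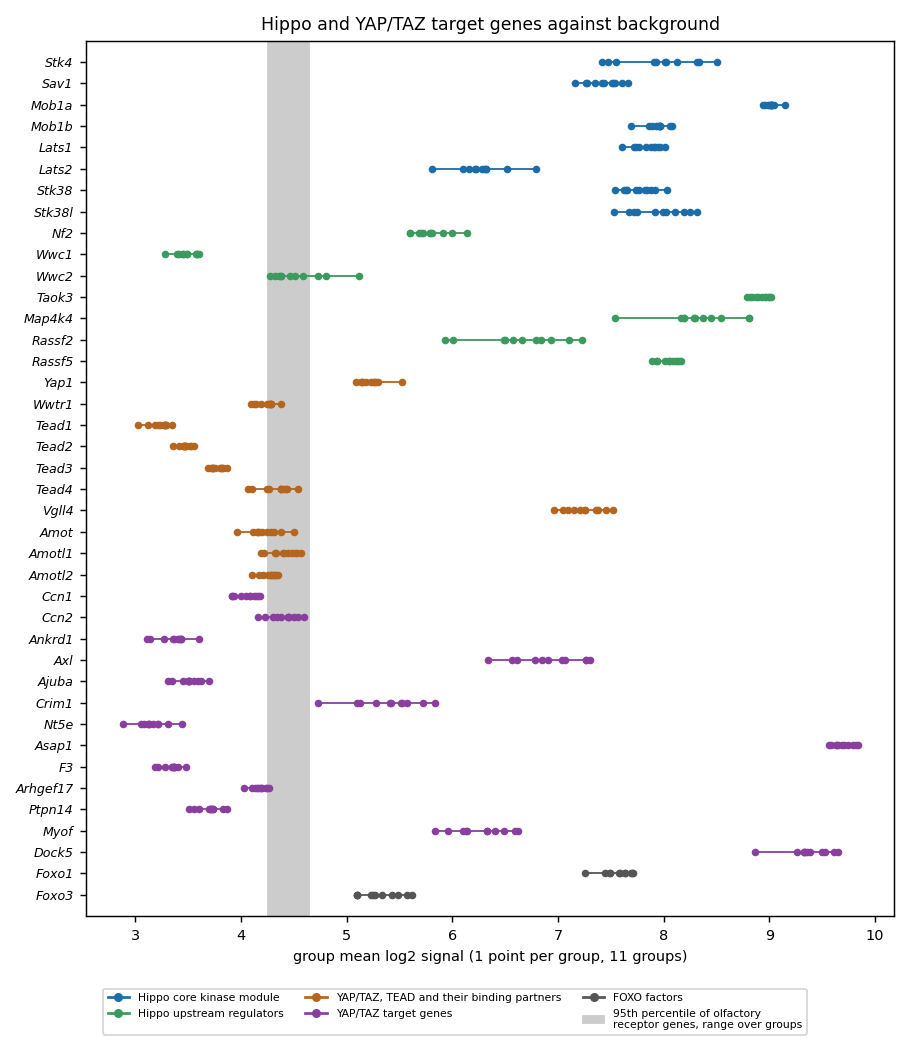
Group mean log2 signal of the 40 measured members, 1 point for each of 11 groups, with a line over their range and colours by role. The grey band spans the olfactory receptor thresholds of the groups, 4.26 to 4.64; the 8 core kinase genes lie right of it, and 11 members have no group above their own threshold. Signals of different genes come from different probe sets and are not comparable with each other. The points of a gene come from several experiments, whose levels are not comparable either.

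Promoter sequence was examined because TEAD factors bind the letters GGAATG, and the pathway's output depends on such sites. Windows from 250 bases before to 50 bases after the annotated start were taken from RefSeq (GRCm38.p6) for the 34 members that have one. GGAATG or its reverse complement CATTCC was present in 17 of these 34, against 16.6% of 27025 genes with a window. A match describes letters in this window only. Of the members called between genotypes below, Stk4, Foxo1 and Amot had a window without a match, and Map4k4 had no window. The members with a match were Sav1, Mob1a, Lats2, Wwc2, Rassf2, Yap1, Wwtr1, Tead3, Vgll4, Amotl2, Ccn1, Ankrd1, Axl, Ajuba, Crim1, Ptpn14 and Foxo3. The windows shown are those of Crim1 and Rassf2, whose signal changed in Mst1/2-KO DCs, and of Ccn1 and Ankrd1, the standard YAP/TAZ target genes that were at background here. They lie at chr17:78199998-78200297 on the plus strand (Crim1) and, on the minus strand, at chr2:132030275-132030574 (Rassf2), chr3:145649936-145650235 (Ccn1) and chr19:36119795-36120094 (Ankrd1). Each is given from 5′ to 3′ on the gene's strand, with matches to either orientation in capitals.
Crim1: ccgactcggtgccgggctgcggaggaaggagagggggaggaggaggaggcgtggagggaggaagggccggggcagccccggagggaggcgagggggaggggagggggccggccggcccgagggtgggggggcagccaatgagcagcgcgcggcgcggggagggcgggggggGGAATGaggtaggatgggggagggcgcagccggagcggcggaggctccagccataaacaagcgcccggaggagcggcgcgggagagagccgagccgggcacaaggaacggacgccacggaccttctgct
Rassf2: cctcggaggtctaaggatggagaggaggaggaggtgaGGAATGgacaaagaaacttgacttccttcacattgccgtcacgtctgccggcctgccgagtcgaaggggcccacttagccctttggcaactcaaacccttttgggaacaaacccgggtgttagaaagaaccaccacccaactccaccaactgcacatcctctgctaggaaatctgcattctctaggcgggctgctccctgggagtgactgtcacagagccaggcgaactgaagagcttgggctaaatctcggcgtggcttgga
Ccn1: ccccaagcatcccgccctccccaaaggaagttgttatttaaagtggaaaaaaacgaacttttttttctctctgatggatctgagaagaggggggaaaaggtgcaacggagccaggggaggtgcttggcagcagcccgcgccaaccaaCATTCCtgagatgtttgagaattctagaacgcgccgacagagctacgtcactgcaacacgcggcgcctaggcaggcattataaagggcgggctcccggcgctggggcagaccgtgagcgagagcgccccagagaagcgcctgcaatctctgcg
Ankrd1: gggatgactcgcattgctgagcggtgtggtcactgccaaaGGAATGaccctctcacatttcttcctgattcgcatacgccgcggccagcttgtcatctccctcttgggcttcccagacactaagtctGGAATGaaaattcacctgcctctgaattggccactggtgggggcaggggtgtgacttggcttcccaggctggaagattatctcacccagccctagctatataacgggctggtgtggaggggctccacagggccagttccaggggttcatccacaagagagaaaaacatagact

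The match in the Crim1 window begins 79 bases before the start, that of Rassf2 213 bases and that of Ccn1 103 bases before it. Ankrd1 has 2 matches, which begin 210 and 123 bases before the start. The letters were present in targets on both sides of the background threshold. Axl and Crim1, both above background, have a match, and so do Ccn1, Ankrd1, Ajuba and Ptpn14, which were at background. Myof, above background, has a window without a match, as do Nt5e and F3, which were at background. Asap1, Dock5, Ccn2 and Arhgef17 had no window.

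The first comparison asked how the pathway's own genes stood in DCs of Mst1/2-KO mice. Stk4, the gene of 1 of the targeted kinases, was lower in all 11 Mst1/2-KO arrays than in all WT arrays of its experiment, and it was still well above background. In CD8+ DCs it had signals of 7.64, 7.22, 7.63 and 7.39 in Mst1/2-KO, against 8.26, 8.33, 8.46 and 8.28 in WT. In CD8- DCs the signals were 7.49, 7.67, 7.65 and 7.39 in Mst1/2-KO, against 8.15, 8.40, 8.44 and 8.28 in WT. In total DCs they were 7.43, 7.32 and 7.50 in Mst1/2-KO, against 8.44, 8.48, 8.53 and 8.58 in WT. The groups did not overlap in any of the 3 preparations.

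Stk4 fell by 0.86 ± 0.10 (SE, n = 4 each) in CD8+ DCs, with an adjusted p of 0.000166 in limma's moderated test over all genes. It fell by 0.77 ± 0.10 in CD8- DCs (limma adjusted p = 0.000211) and by 1.09 ± 0.09 in total DCs (limma adjusted p = 0.00154, n = 3 and 4). The signed effect in CD8+ minus that in CD8- DCs was -0.09 (95% interval -0.40 to 0.21). These calls held without any single array and under every other setting tried. Whether the probes lie inside the deleted part of Stk4 is not given in the sources used here, and residual signal and cells that kept the gene cannot be told apart. In these sorted populations, fewer cells of a type and less RNA per cell cannot be told apart either.

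In CD8+ DCs few pathway genes besides Stk4 were called between genotypes, and few of all genes were. Called, at an adjusted p under 0.05 in limma, were 2 of the 40 members, against 0.888% of all 22180 genes. Both were lower in Mst1/2-KO, as were 0.654% of all genes, while no member and 0.234% of all genes were higher. For 7 of the 40 members the 4 Mst1/2-KO values lay all above or all below the 4 WT values, against 6.33% of all genes. The second called member was Rassf2, a partner and stabiliser of MST1. Rassf2 had signals of 5.99, 5.75, 5.92 and 6.05 in Mst1/2-KO CD8+ DCs, against 6.46, 6.56, 6.25 and 6.68 in WT CD8+ DCs. All 4 Mst1/2-KO arrays were below all 4 WT arrays, and Rassf2 fell by 0.56 ± 0.10 (limma adjusted p = 0.0102). With only the CD8+ arrays in the fit its adjusted p was 0.0549.

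Of the 13 YAP/TAZ targets none was called in CD8+ DCs by limma, and none had an unadjusted p under 0.05. The member next to the threshold was Amotl1, an angiomotin, with 4.42, 4.70, 4.60 and 4.57 in Mst1/2-KO CD8+ DCs, against 4.17, 4.09, 4.38 and 4.13 in WT CD8+ DCs. These groups did not overlap, but the WT level was at background and the limma adjusted p was 0.0853. Of 27 other Hippo pathway genes measured, limma called 0, and 2 had an unadjusted p under 0.05. Of 14 other YAP/TAZ targets it called 1: Birc5, an inhibitor of apoptosis needed in cell division, rose by 0.58 ± 0.13 (limma adjusted p = 0.0344).

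In CD8- DCs limma called more of the members than in CD8+ DCs, and also more of all genes. Called were 6 of the 40 members, against 6.68% of all genes. Of these 4 were higher and 2 lower in Mst1/2-KO, against 3.9% and 2.79% of all genes. Higher in Mst1/2-KO were Map4k4, Crim1, Foxo1 and Amot, and lower were Stk4 and Rassf2. Complete separation of the 2 genotypes was seen for 9 members, against 12% of all genes. The median over all 40 members was 0.01, and over all genes it was 0.00.

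Map4k4 had signals of 8.20, 8.17, 8.34 and 8.46 in Mst1/2-KO CD8- DCs, against 7.82, 7.55, 7.26 and 7.51 in WT CD8- DCs. The groups were well separated, and Map4k4 rose by 0.76 ± 0.11 (limma adjusted p = 0.000385). In CD8+ DCs the same gene had 8.62, 8.43, 8.52 and 8.61 in Mst1/2-KO, against 8.96, 8.87, 8.64 and 8.76 in WT. There the order was the other way round, with a difference of -0.26 ± 0.11 that did not pass the test (limma adjusted p = 0.383).

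The genotype effects on Map4k4 differed between the subsets. The effect in CD8+ minus that in CD8- DCs was -1.02 ± 0.15 (limma adjusted p = 0.00377 for the interaction). Map4k4 was the 1 member of 40 called in this test, against 0.559% of all genes. It was called without each of the 16 arrays in turn and under all 6 other settings. Amot had the next smallest p (limma adjusted p = 0.0762), but it was above background in 1 of the 4 groups, so no size is given. It passed at 0.0482 after quantile normalization, at 0.0384 with array weights and just under 0.05 over genes above background. It also passed without WT CD8- replicate 1 (0.0422) and without Mst1/2-KO CD8+ replicate 2 (0.0395).

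Crim1 had signals of 5.42, 5.37, 5.67 and 5.60 in Mst1/2-KO CD8- DCs, against 4.99, 4.43, 4.61 and 4.87 in WT CD8- DCs. The WT level was close to that group's background threshold of 4.45, and the WT signal of 4.43 lay below it. Crim1 rose by 0.79 ± 0.18 (limma adjusted p = 0.0110) with no overlap between the groups. It was the 1 called gene among the 13 YAP/TAZ targets. Over these 13 the median difference was -0.14. Only 3 of them had a difference above 0, and 5 had an unadjusted limma p under 0.05. In CD8+ DCs Crim1 was scattered in Mst1/2-KO, at 6.11, 5.34, 5.03 and 5.78, around the tight WT values of 5.42, 5.62, 5.52 and 5.55. The difference between the effects, -0.75 ± 0.25, did not pass the test (limma adjusted p = 0.256).

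The 4 other targets above background in every group were not called. Axl, Asap1, Myof and Dock5 had differences of -0.23, -0.14, -0.12 and -0.40, and the 8 remaining targets were at background in both CD8- groups. Dock5 had 8.93, 8.92, 8.89 and 8.72 in Mst1/2-KO CD8- DCs, against 8.80, 9.54, 9.41 and 9.30 in WT CD8- DCs. The overlap was due to WT replicate 1 alone. The difference was -0.40 ± 0.12 (limma adjusted p = 0.0511) with that array and -0.55 (limma adjusted p = 0.000497) without it.

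Foxo1, a transcription factor that MST1 can phosphorylate, had 7.64, 7.38, 7.85 and 7.69 in Mst1/2-KO CD8- DCs, against 7.20, 7.26, 7.26 and 7.29 in WT CD8- DCs. It rose by 0.39 ± 0.09 (limma adjusted p = 0.0171) without overlap. The call was lost without Mst1/2-KO replicate 3 (0.0620) or replicate 4 (0.0565). The second Foxo1 probe set averaged 6.45 in Mst1/2-KO and 6.07 in WT CD8- DCs. Foxo3 was not called, at a difference of -0.05.

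Amot had 4.52, 4.48, 4.38 and 4.63 in Mst1/2-KO CD8- DCs, against 4.28, 4.13, 4.19 and 4.04 in WT CD8- DCs. The WT mean was not above background, so Amot rose at least 1.03-fold, with a limma adjusted p of 0.0146. The call was lost without WT replicate 4 (0.0540) or Mst1/2-KO replicate 4 (0.0608). Rassf2 had 6.68, 6.81, 7.08 and 6.80 in Mst1/2-KO CD8- DCs, against 7.30, 7.21, 7.12 and 7.30 in WT CD8- DCs. It fell by 0.39 ± 0.10 (limma adjusted p = 0.0300) with a narrow gap between the groups. This call was lost without WT replicates 1, 2 or 4 or without Mst1/2-KO replicates 1, 2 or 4, at adjusted p-values of 0.0601 to 0.100.

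Of 27 other Hippo pathway genes, 5 rose and 1 fell in CD8- DCs of Mst1/2-KO mice. The kinases Stk26, Slk and Map4k1 rose by 0.65 ± 0.16, 0.55 ± 0.10 and 0.52 ± 0.07, and Stk10 and Frmd6 also rose. Mink1, a kinase of the same family as Map4k4, fell by 0.42 ± 0.08 (limma adjusted p between 0.000201 and 0.0230 for those with a value). The effect on Map4k1, alone among the 27, was called as differing between the subsets. Among 14 other YAP/TAZ targets Birc5 rose by 0.58 ± 0.13 and Birc2, an apoptosis inhibitor, fell by 0.65 ± 0.11 (limma adjusted p = 0.00898 and 0.00192).

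Cell type markers moved in the same CD8- comparison. The 8 CD8+ DC markers averaged 8.20 (7.93 to 8.34 per array) in Mst1/2-KO CD8- DCs, against 7.74 (7.50 to 8.05) in WT CD8- DCs, and 4 of 8 rose. The 7 CD8- DC markers averaged 9.06 (8.84 to 9.26) in Mst1/2-KO and 9.65 (9.58 to 9.73) in WT, with 3 lower and 1 higher. The 8 plasmacytoid DC markers averaged 8.06 (7.83 to 8.22) in Mst1/2-KO and 7.20 (6.97 to 7.42) in WT, and 4 of 8 rose. Their part in the results above was not tested.

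The 9 B cell markers averaged 4.60 (4.55 to 4.75) in Mst1/2-KO CD8- DCs, against 5.04 (4.90 to 5.16) in WT, with 3 lower. Pax5, Ebf1, Cd79a and Vpreb3 were not above background in either group. The macrophage and monocyte list averaged 8.20 in both CD8- groups, but Ly6c2 was 1.94 ± 0.37 higher and Adgre1 1.05 ± 0.15 lower in Mst1/2-KO. Kdr, an endothelial marker, was 0.70 ± 0.13 higher and Cd5, a T cell marker, 0.72 ± 0.14 lower.

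In CD8+ DCs the CD8+ DC markers averaged 10.9 in both genotypes. The CD8- DC markers averaged 5.70 (5.60 to 5.81) in Mst1/2-KO CD8+ DCs, and in WT CD8+ DCs 5.82 (5.66 to 6.08). Of these 7, Itgam was 0.71 ± 0.14 higher in Mst1/2-KO (limma adjusted p = 0.0209), 4 had an unadjusted p under 0.05, and the median difference was -0.34. Their part in the fall of Rassf2 was not tested. All 8 stromal markers were at background in both CD8+ groups and in WT CD8- DCs, and 7 of 8 in Mst1/2-KO CD8- DCs. In CD8- DCs the 3 Y-linked genes measured averaged 4.65 (4.23 to 4.96) in Mst1/2-KO and 5.26 (5.13 to 5.37) in WT. In CD8+ DCs they averaged 4.65 (4.18 to 5.03) with the knockout and 5.06 (4.92 to 5.33) in WT. None was called, but all 3 had an unadjusted limma p under 0.05 in CD8- DCs and 1 of 3 in CD8+ DCs. Their median difference was -0.71 in CD8- and -0.52 in CD8+ DCs. The sex of the mice was not adjusted for, and its part in the results above was not tested.

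**Figure D2:**
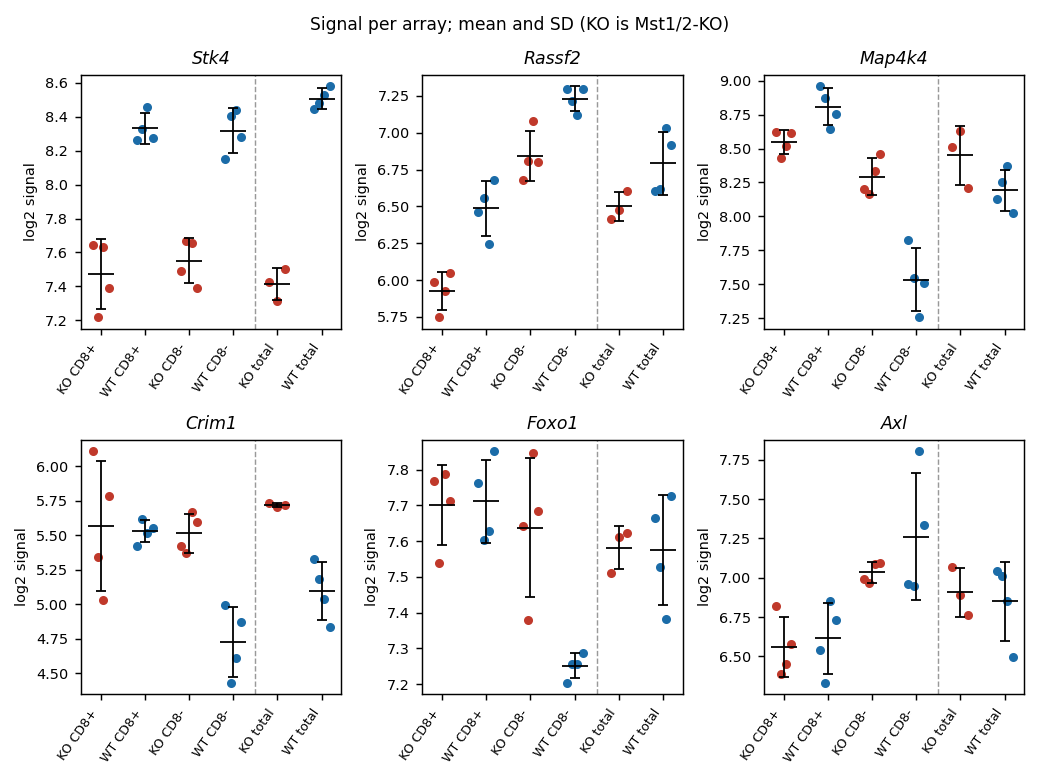
Log2 signal per array of Stk4, Rassf2, Map4k4, Crim1, Foxo1 and Axl in Mst1/2-KO (red, KO) and WT (blue) sorted and total DCs, with the mean and SD; the dashed line separates experiments whose levels are not comparable. Stk4 is lower in Mst1/2-KO in all 3 preparations, and the Map4k4, Crim1 and Foxo1 signals of WT CD8- DCs lie below those of the other sorted groups.

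In total DCs Stk4 was the 1 called member of 40, against 0.848% of all genes, and no member was called higher. For 8 members the genotypes were completely separated, against 13.8% of all genes. Crim1 was next, with 5.74, 5.70 and 5.72 in Mst1/2-KO total DCs, against 5.33, 5.18, 5.04 and 4.84 in WT total DCs. The groups did not overlap and the difference was 0.62 ± 0.12, but its limma adjusted p was 0.0516. It passed at 0.0484 with a trended, robust fit, at 0.0370 with array weights, at 0.0388 over genes above background and at 0.0357 without WT replicate 1.

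Map4k4 had 8.51, 8.63 and 8.21 in Mst1/2-KO total DCs, against 8.12, 8.25, 8.37 and 8.02 in WT total DCs, and these groups overlapped. Rassf2 had 6.42, 6.48 and 6.61 in Mst1/2-KO total DCs, against 6.61, 6.62, 7.03 and 6.91 in WT total DCs. The difference of -0.29 ± 0.13 was not called (limma adjusted p = 0.359). Of 27 other Hippo genes limma called 0, and 5 had an unadjusted p under 0.05. Of 14 other targets 2 fell: Ptgs2, the inducible prostaglandin synthase, by 0.98 ± 0.13 and Birc2 by 0.74 ± 0.09 (limma adjusted p = 0.00993 and 0.00860).

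The 7 CD8- DC markers averaged 7.22 (6.88 to 7.58) in Mst1/2-KO total DCs, against 7.98 (7.78 to 8.16) in WT total DCs. The 8 CD8+ DC markers averaged 9.60 (9.56 to 9.64) in Mst1/2-KO and 9.27 (9.03 to 9.57) in WT. Of both lists only Cd4 was called, lower in Mst1/2-KO. Adgre1, a macrophage marker, was lower by 1.47 ± 0.22 (limma adjusted p = 0.0192). The 8 plasmacytoid DC markers averaged 7.07 (6.64 to 7.67) in Mst1/2-KO total DCs, and in WT total DCs 7.47 (6.98 to 7.95), with 5 of 8 at an unadjusted p under 0.05 and none called. The part of these markers in the values of Crim1 and of the other members was not tested.

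**Figure D3:**
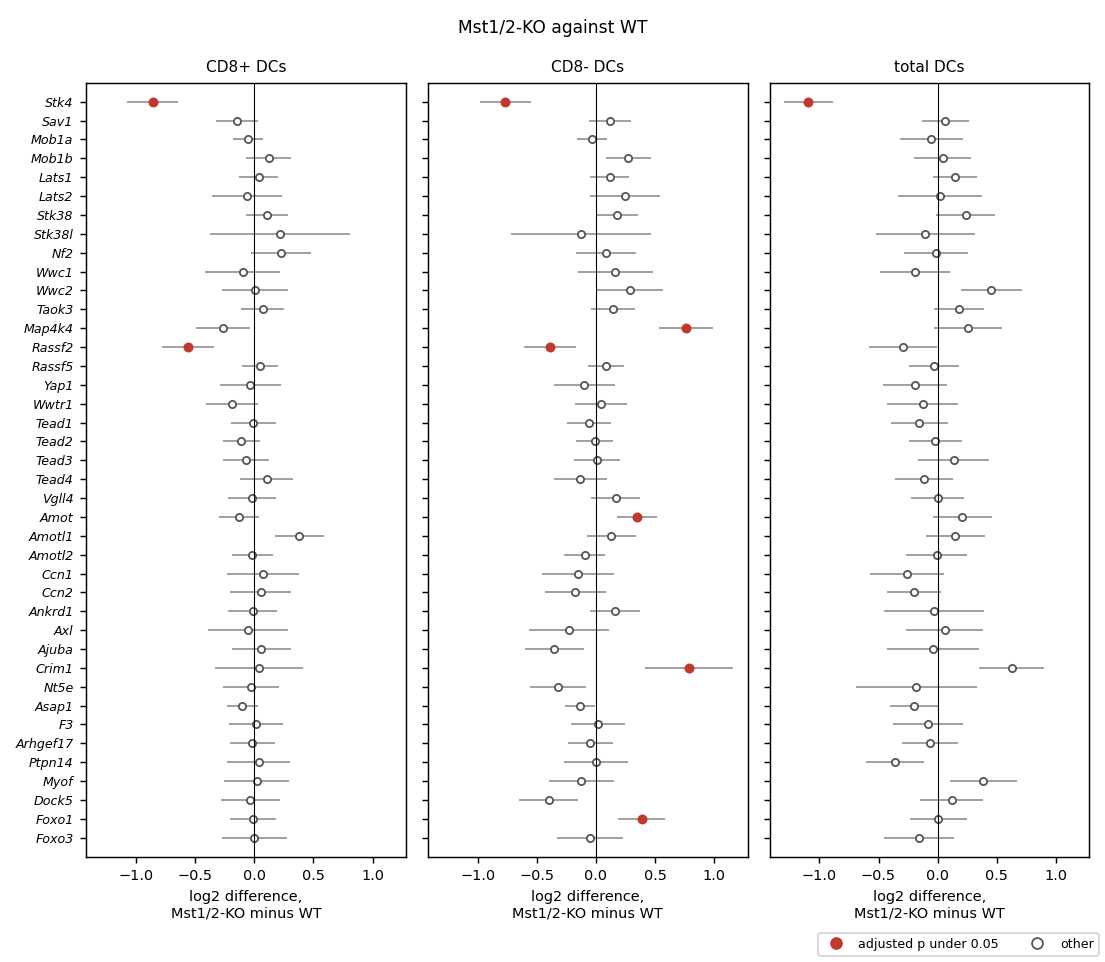
Log2 difference between Mst1/2-KO and WT for each member in CD8+, CD8- and total DCs, with the 95% interval from limma; filled red points have an adjusted p under 0.05. Stk4 is the one gene called in all 3 panels, and Rassf2 is called in both subsets.

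The second question was how pathway genes differ between the DC subsets, in Mst1/2-KO and in WT mice. In Mst1/2-KO, limma called 13 of 40 members, 5 higher and 8 lower in CD8+ than in CD8- DCs, against 19.2% of all genes (9.93% higher and 9.3% lower). In WT it called 13 of 40, 9 higher and 4 lower in CD8+ DCs, against 21% of all genes (11% higher and 10% lower). The 2 comparisons share no arrays, and the interaction test given above called only Map4k4 as differing between them.

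Map4k4 was 0.25 ± 0.11 higher in CD8+ than in CD8- DCs in Mst1/2-KO, which was not called (limma adjusted p = 0.126, or 0.0356 with the replicate number as a block), and 1.27 ± 0.11 higher in WT (limma adjusted p = 7.3e-08). Crim1 was 0.80 ± 0.18 higher in CD8+ than in CD8- DCs of WT mice (limma adjusted p = 0.00261), against a difference of 0.05 in Mst1/2-KO. Foxo1 was 0.46 ± 0.09 higher in WT CD8+ DCs (limma adjusted p = 0.00127), against 0.06 in Mst1/2-KO. For Crim1 and Foxo1 these gaps were not called as differing between genotypes (limma adjusted p = 0.256 and 0.254). The WT CD8- arrays enter the subset and the genotype comparison alike.

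Rassf2 was lower in CD8+ than in CD8- DCs by 0.92 ± 0.10 in Mst1/2-KO and by 0.74 ± 0.10 in WT (limma adjusted p = 2.6e-06 and 2.8e-05), with the array values given above. The subsets did not overlap in either genotype. Of the core module, Sav1 had 7.55, 7.31, 7.59 and 7.63 in Mst1/2-KO CD8+ DCs, against 7.32, 7.14, 7.31 and 7.33 in Mst1/2-KO CD8- DCs. It had 7.66, 7.66, 7.70 and 7.65 in WT CD8+ DCs, against 7.06, 7.01, 7.23 and 7.32 in WT CD8- DCs. Sav1 was higher in CD8+ DCs in both genotypes, by 0.25 ± 0.08 with overlap in Mst1/2-KO and by 0.51 ± 0.08 without overlap in WT (limma adjusted p = 0.0497 and 0.000196).

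Lats1 had 7.92, 8.04, 7.97 and 7.91 in Mst1/2-KO CD8+ DCs, against 7.59, 7.77, 7.75 and 7.76 in Mst1/2-KO CD8- DCs. In WT it had 7.92, 7.93, 7.84 and 7.99 in CD8+ DCs, against 7.56, 7.44, 7.80 and 7.62 in CD8- DCs. It was higher in CD8+ DCs without overlap in both genotypes, by 0.24 ± 0.08 in Mst1/2-KO (limma adjusted p = 0.0362, or 0.0617 with the replicate block) and by 0.32 ± 0.08 in WT (0.00611). Mob1b was higher in CD8+ DCs in WT alone by the test, with 7.84, 8.05, 7.94 and 7.99 in WT CD8+ DCs, against 7.69, 7.72, 7.67 and 7.66 in WT CD8- DCs (0.27 ± 0.09, limma adjusted p = 0.0452). In Mst1/2-KO the difference was 0.11, and a difference between genotypes was not called. The WT call for Mob1b was lost without any array but WT CD8+ replicate 1, at up to 0.125.

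Lats2 and Stk38 were lower in CD8+ DCs of Mst1/2-KO mice. Lats2 had 6.15, 6.03, 6.21 and 6.01 in Mst1/2-KO CD8+ DCs, against 6.42, 6.52, 6.65 and 6.50 in Mst1/2-KO CD8- DCs. Stk38 had 7.60, 7.70, 7.71 and 7.58 in Mst1/2-KO CD8+ DCs, against 7.90, 7.88, 8.07 and 7.82 in Mst1/2-KO CD8- DCs. Neither pair of groups overlapped, and the differences were -0.42 ± 0.14 and -0.27 ± 0.08 (limma adjusted p = 0.0424 and 0.0324). Stk38l varied with the replicate number: it had 8.47, 7.29, 6.92 and 7.42 in WT CD8+ DCs, against 9.14, 8.26, 7.98 and 7.89 in WT CD8- DCs. In every same-numbered pair the CD8+ array was lower, by 0.79 on average, with a limma adjusted p of 0.0542 without and 8.0e-05 with the replicate block. In Mst1/2-KO the difference for Stk38l was -0.44, at 0.336 without and 0.00584 with the block.

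Among upstream regulators, Wwc2 had 4.42, 4.55, 4.19 and 4.37 in Mst1/2-KO CD8+ DCs, against 4.71, 4.44, 5.03 and 5.02 in Mst1/2-KO CD8- DCs. Rassf5, the RAPL partner of MST1 in lymphocyte adhesion, had 8.05, 7.92, 7.83 and 7.93 in Mst1/2-KO CD8+ DCs, against 8.28, 8.19, 8.15 and 8.03 in Mst1/2-KO CD8- DCs. Both were lower in CD8+ DCs with overlapping groups, at limma adjusted p-values of 0.0334 and 0.0372, or 0.0780 and 0.0519 with the replicate block. Amot had 4.12, 4.34, 4.05 and 4.10 in Mst1/2-KO CD8+ DCs, below the Mst1/2-KO CD8- values given above and not above background. It was at least 1.09-fold lower there (limma adjusted p = 0.00381). Vgll4 had 7.43, 7.29, 7.31 and 7.48 in WT CD8+ DCs, against 7.23, 6.96, 6.92 and 7.06 in WT CD8- DCs. It was 0.33 ± 0.10 higher in CD8+ DCs without overlap (limma adjusted p = 0.0193), and in Mst1/2-KO the difference was 0.15.

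The expressed YAP/TAZ targets did not move as a block between the subsets. Myof had 6.78, 6.29, 6.50 and 6.89 in Mst1/2-KO CD8+ DCs, against 6.09, 5.76, 5.72 and 5.77 in Mst1/2-KO CD8- DCs. It had 6.73, 6.66, 6.54 and 6.45 in WT CD8+ DCs, against 6.25, 5.92, 5.77 and 5.88 in WT CD8- DCs. Myof was higher in CD8+ DCs without overlap, by 0.78 ± 0.13 in Mst1/2-KO and by 0.64 ± 0.13 in WT (limma adjusted p = 0.000236 and 0.00143).

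Dock5 had 9.64, 9.57, 9.66 and 9.59 in Mst1/2-KO CD8+ DCs and 9.52, 9.72, 9.66 and 9.68 in WT CD8+ DCs, with the CD8- values given above. It was higher in CD8+ DCs by 0.75 ± 0.12 in Mst1/2-KO and by 0.38 ± 0.12 in WT (limma adjusted p = 0.000116 and 0.0263), and the groups overlapped in WT alone. The WT call was lost with only the WT arrays in the fit (0.0959) and without WT CD8+ replicates 2, 3 or 4 or WT CD8- replicate 1 (0.0569 to 0.0693).

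Axl ran the other way. It had 6.82, 6.39, 6.46 and 6.58 in Mst1/2-KO CD8+ DCs, against 6.99, 6.96, 7.09 and 7.09 in Mst1/2-KO CD8- DCs. It had 6.54, 6.33, 6.85 and 6.73 in WT CD8+ DCs, against 6.96, 6.94, 7.80 and 7.33 in WT CD8- DCs. The groups did not overlap in either genotype, and Axl was lower in CD8+ DCs by 0.48 ± 0.16 in Mst1/2-KO and by 0.65 ± 0.16 in WT (limma adjusted p = 0.0468 and 0.00653). Foxo3 was also lower, with 5.12, 4.86, 5.33 and 5.06 in Mst1/2-KO CD8+ DCs, against 5.59, 5.24, 5.71 and 5.73 in Mst1/2-KO CD8- DCs. In WT it had 4.85, 5.15, 5.33 and 5.04 in CD8+ DCs, against 5.67, 5.38, 5.78 and 5.64 in CD8- DCs. The differences were -0.47 ± 0.13 with overlap in Mst1/2-KO and -0.52 ± 0.13 without overlap in WT (limma adjusted p = 0.0152 and 0.00690).

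Ccn2 and Nt5e were called at signals at or near background. Ccn2 had 4.33, 4.72, 4.85 and 4.47 in Mst1/2-KO CD8+ DCs, against 4.10, 4.26, 4.23 and 4.07 in Mst1/2-KO CD8- DCs, where it was not above background. It was at least 1.19-fold higher in CD8+ DCs (limma adjusted p = 0.0168). Nt5e, the gene of CD73, had 3.10, 3.12, 3.02 and 3.10 in WT CD8+ DCs, against 3.23, 3.72, 3.32 and 3.51 in WT CD8- DCs (limma adjusted p = 0.0276). It was above background in neither group, so no fold is given.

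Many Mst1/2-KO subset calls were close to the threshold. That of Lats2 was lost without each of the 8 arrays in turn (adjusted p 0.0522 to 0.109). Those of Sav1 and Axl were lost without any array but CD8+ replicate 2 and CD8+ replicate 1, at up to 0.149 and 0.129. Those of Lats1, Rassf5 and Wwc2 were lost without 6, 6 and 5 arrays, at up to 0.121, 0.124 and 0.112. For Lats1 these were CD8+ replicates 1, 2 and 3 and CD8- replicates 1, 3 and 4. For Rassf5 they were CD8+ replicates 2, 3 and 4 and CD8- replicates 1, 2 and 3, and for Wwc2 they were CD8+ replicates 1, 3 and 4 and CD8- replicates 3 and 4.

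The Mst1/2-KO call of Stk38 was lost without CD8+ replicates 1 or 4 or CD8- replicates 1 or 3 (up to 0.108). That of Ccn2 was lost without CD8+ replicates 2 or 3 or CD8- replicate 4 (up to 0.0667), and that of Foxo3 without CD8+ replicate 2 or CD8- replicates 3 or 4 (up to 0.0591). In WT, the calls of Vgll4 (without CD8+ replicate 4 or CD8- replicates 2 or 3, up to 0.0664) and Nt5e (without CD8+ replicates 3 or 4 or CD8- replicates 2 or 4, up to 0.109) were lost likewise. Other settings also ended Mst1/2-KO calls: quantile normalization those of Lats2 (0.0739), Stk38 (0.0791) and Rassf5 (0.104), array weights those of Sav1 (0.0650) and Axl (0.0584), a trended robust fit that of Sav1 (0.0551). With only the Mst1/2-KO arrays in the fit, Sav1 (0.0900), Rassf5 (0.0901) and Wwc2 (0.0571) were not called. Calls of Rassf2, Myof, Dock5 and Amot in Mst1/2-KO, and of Map4k4, Rassf2, Crim1, Foxo1, Myof, Sav1, Lats1, Axl and Foxo3 in WT, held without any single array.

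Of 27 other Hippo genes, 2 were higher and 5 lower in Mst1/2-KO CD8+ than CD8- DCs, and 5 were higher and 6 lower in WT CD8+ than CD8- DCs. Map4k5, a kinase related to Map4k4, was higher in CD8+ DCs by 1.30 ± 0.11 in Mst1/2-KO and by 1.53 ± 0.11 in WT. Stk26, which was not above background in CD8+ DCs, was at least 3.24-fold lower there in Mst1/2-KO and at least 2.00-fold lower in WT. Of 14 other YAP/TAZ targets, 3 were called in Mst1/2-KO and 2 in WT, all lower in CD8+ DCs. Ptgs2 was lower by 4.69 ± 0.28 on the log2 scale in Mst1/2-KO and by 4.45 ± 0.28 in WT, and Birc2 was lower in both genotypes, by 0.59 ± 0.11 and by 0.76 ± 0.11. Nuak2, a kinase, was lower by 0.91 ± 0.26 in Mst1/2-KO (limma adjusted p = 0.0166). Markers of other cells also differed between the subsets. In Mst1/2-KO, 4 of 6 T cell, 4 of 7 NK cell and 8 of 12 macrophage and monocyte markers were lower in CD8+ than in CD8- DCs, and in WT these counts were 5 of 6, 6 of 7 and 9 of 12. The T cell list averaged 4.13 (4.06 to 4.21) in CD8+ and 4.97 (4.70 to 5.27) in CD8- DCs of Mst1/2-KO mice, and 4.27 (4.17 to 4.35) in CD8+ and 5.25 (4.92 to 5.59) in CD8- DCs of WT mice. Their part in the subset differences of the pathway genes was not tested.

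**Figure D4:**
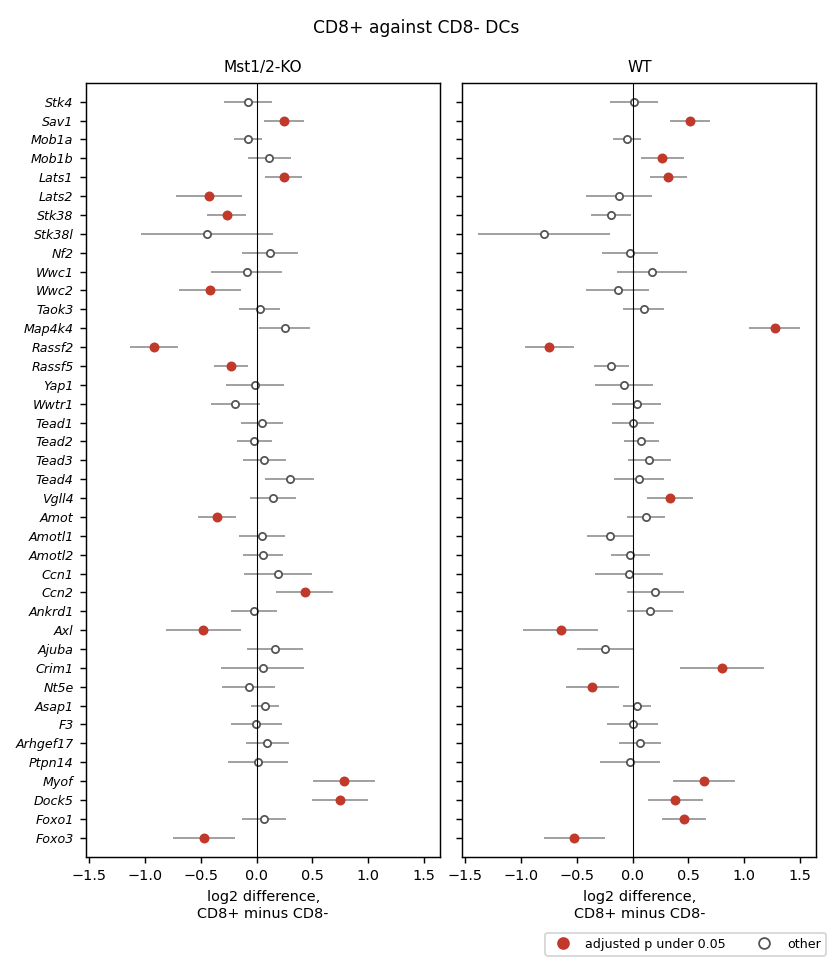
Log2 difference between CD8+ and CD8- DCs for each member in Mst1/2-KO (left) and WT (right), with the 95% interval from limma; filled red points have an adjusted p under 0.05. Rassf2, Axl and Foxo3 are lower and Sav1, Lats1, Myof and Dock5 higher in CD8+ DCs in both panels, while Map4k4, Crim1 and Foxo1 are called in WT alone, a contrast between genotypes that passed the test for Map4k4 only.

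Loss of p38 in Rag1-KO DCs after anti-CD40 was examined on 7 arrays. Limma called 0 of 40 members and 0% of all genes, with 3 members and 1866 genes at an unadjusted p under 0.05. Those 3 were Nf2, F3 and Axl. Nf2 had 5.87, 6.19 and 5.93 in Rag1-KO p38-KO DCs, against 5.80, 5.65, 5.53 and 5.44 in Rag1-KO DCs, without overlap and with a difference of 0.39 ± 0.11. Axl had 6.03, 6.63 and 6.35 in Rag1-KO p38-KO DCs, against 6.81, 6.67, 8.10 and 7.47 in Rag1-KO DCs. The difference was -0.93 ± 0.36 without overlap (limma adjusted p = 0.583). Stk4 differed by -0.02 (95% interval -0.18 to 0.14).

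The kinase genes Lats2 and Stk38l split the Rag1-KO arrays of this experiment, with an SD of 0.61 and 0.69 over the 4 arrays. Stk4 and Lats1 had an SD of 0.09 and 0.08 there. Lats2 had 6.91 and 6.57 on replicates 1 and 2 of Rag1-KO, and 5.63 and 5.79 on replicates 3 and 4, while the 3 Rag1-KO p38-KO arrays lay between 6.23 and 6.40. Stk38l had 8.34, 8.28, 7.02 and 7.23 in the Rag1-KO arrays in the same order, and 8.18 to 8.32 in Rag1-KO p38-KO. Markers of other cells differed between the groups, though none was called. The 9 neutrophil markers averaged 4.75 (3.82 to 5.39) in Rag1-KO p38-KO, against 6.16 (5.77 to 6.87) in Rag1-KO DCs, with 6 at an unadjusted p under 0.05. The 12 macrophage and monocyte markers averaged 7.26 (7.09 to 7.49) in Rag1-KO p38-KO, against 7.84 (7.37 to 8.31) in Rag1-KO DCs, with 5 at an unadjusted p under 0.05. Their part in these values was not tested.

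In the second Rag1-KO experiment the comparisons rest on a lone array each, whose spread was taken from the other groups. After anti-CD40, limma called 0 of 40 members against the non-stimulated array, against 0.0361% of all genes, with 4 members at an unadjusted p under 0.05. The largest difference was for Rassf2, which had 6.77 and 7.10 in Rag1-KO DCs after anti-CD40, against 6.01 in non-stimulated Rag1-KO DCs (0.92 ± 0.25, limma adjusted p = 0.196). Wwc2 had 4.08 and 4.55 after anti-CD40, against 5.11 without, where alone it was above background. It was at least 1.39-fold lower after anti-CD40, and Map4k4 had 8.24 and 8.33, against 8.80 (-0.52 ± 0.18). None of these passed the test. The 9 neutrophil markers averaged 7.05 in Rag1-KO DCs after anti-CD40, 5.88 in non-stimulated Rag1-KO DCs and 5.17 on the WT array after anti-CD40. In the same order, the 7 NK cell markers averaged 6.10, 5.96 and 5.07, and the 9 B cell markers 4.09, 4.12 and 4.78. The part of these markers in the values of the second experiment was not tested.

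Between genotypes after anti-CD40, limma called 0 of 40 members in Rag1-KO against WT, against 0.365% of all genes, with 2 at an unadjusted p under 0.05. Nf2 had the smallest p, with 5.67 and 5.52 in Rag1-KO DCs, against 6.14 on the WT array (-0.54 ± 0.17, limma adjusted p = 0.219). Stk4 differed by 0.11 in Rag1-KO against WT and by 0.11 after anti-CD40 against non-stimulated, and neither was called (limma adjusted p = 0.758 and 0.764).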

How the data were processed

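The authors deposited log2 signals per probe set of an Affymetrix Mouse Gene 2.0 ST array, and RMA and Partek 6.6 are named per the submitters' processing notes, with no role or order; the genome build is not given in the sources used here. Per the labels' protocols, cells were FACS-sorted, RNA was extracted and amplified cDNA was biotin-labelled, so small inputs were amplified before hybridisation. All 34 arrays and every value column were used. Of 41155 probe sets, 23521 had 1 gene symbol, giving 22180 genes; of several probe sets for a gene, the one with the highest mean was kept. Probe sets shared decimals within an experiment label and not across labels, so each of the 4 labels was compared within itself.

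For the 9 comparisons, limma 3.58.1 (R 4.3.3) was used (group means, two-sided, Benjamini-Hochberg over all genes), with the sorted groups in 1 fit and the lone arrays' spread pooled over both Rag1-KO experiments. The code was tested on simulated data. Members and lists were chosen with earlier results of these data known. Named are Stk4, members called in any comparison with their array values, members above background with their ranges, members at background by count and range, and up to 4 called genes of each other list; other genes named were chosen after their values were seen.

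Same-numbered CD8+ and CD8- arrays of a genotype deviated together. Over 11747 genes above background the correlation was 0.153 to 0.271 in Mst1/2-KO and 0.177 to 0.409 in WT. The lowest over all genes was 0.093 in Mst1/2-KO and 0.126 in WT. The main fits did not pair these arrays, and the number entered as a pair only in the replicate block given as an alternative. That pairing rests on the data, not on the labels. Alternatives were quantile normalization, a trended robust variance model, array weights, a filter on dim genes, the mean over probe sets, fewer groups in the fit, the replicate block and leaving out each array.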

Additional observations from a re-analysis of the deposited data

Results flagged for a closer look

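The Mst1/2-KO effect on Map4k4 differed between the subsets by a test of the difference itself: the effect in CD8+ minus that in CD8- DCs was -1.02 on the log2 scale (limma adjusted p = 0.00377). In 120 member-by-group sets of 4 arrays, 6 held an array far from the others by Dixon's test, and chance alone gives about 5% of sets. In Mst1/2-KO CD8- DCs Sav1 was lowest on replicate 2, at 7.14 against 7.31 to 7.33 on the others. Lats1 was lowest on replicate 1, at 7.59 against 7.75 to 7.77. Myof was highest on replicate 1, at 6.09 against 5.72 to 5.77. In WT CD8+ DCs Wwc2 was lowest on replicate 1, at 4.17 against 4.44 to 4.46. In WT CD8- DCs Ccn2 was lowest on replicate 4, at 4.00 against 4.43 to 4.48. Among Rag1-KO arrays of the first experiment, Stk38 was lowest on replicate 4, at 7.28 against 7.72 to 7.76.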

How the results depend on the processing

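Of 37 called or named results for single members, 20 stayed on the same side of the threshold under every alternative tried, 17 did not, and none reversed. Between genotypes in CD8+ DCs, a fit of the compared groups alone called 1 member and 123 genes, and leaving out single arrays gave 2 members and 114 to 209 genes (114 without Mst1/2-KO replicate 3, 126 without replicate 4). In CD8- DCs the count was 4 to 7 members and 918 to 1533 genes, with 940 without WT replicate 2 and 918 without Mst1/2-KO replicate 4. For the difference between these effects, 2 members were called after quantile normalization, with array weights and over genes above background, and 222 genes with array weights. Without single arrays it was 1 to 3 members and 79 to 259 genes (3 and 259 without WT CD8- replicate 1, 79 without WT CD8- replicate 2, 80 without Mst1/2-KO CD8- replicate 4, 2 members without Mst1/2-KO CD8+ replicate 2).

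Between Mst1/2-KO subsets 6 to 9 members were called without single arrays, 9 only without CD8- replicate 2, and between WT subsets 9 to 14. In total DCs 2 members were called with a trended robust fit, array weights or genes above background, and 340 genes with the first and 304 with the last. Without single arrays it was 1 to 2 members (2 without WT replicate 1) and 39 to 169 genes (39 and 53 without Mst1/2-KO replicates 2 and 1, 89 to 124 without WT replicates 2, 3 or 4). After anti-CD40 against non-stimulated, 17 genes were called with a trended robust fit, 4 with array weights, 2 over genes above background and 0 with only 4 arrays in the fit, and 39 and 136 without Rag1-KO replicate 1 or 3. In Rag1-KO against WT the counts were 44 with array weights, 30 over genes above background and 7 with only 4 arrays, and 195 and 234 without Rag1-KO replicate 1 or 3. The cause was not tested in any of these.

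With the replicate block, 211 genes were called for the difference between effects, 108 in total DCs, 0 after anti-CD40 and 0 in Rag1-KO against WT. In the subset comparisons the block changed no call beside those given with their values, except that Tead4 passed at 0.0353 in Mst1/2-KO (at least 1.10-fold higher in CD8+ DCs, since CD8- DCs were not above background). Between genotypes in CD8- DCs it called 8 members, with Dock5 (0.0462) and Nt5e (0.0370) added. Same-numbered Mst1/2-KO and WT arrays did not deviate together throughout (correlation -0.079 to 0.171 over genes above background). The 3 same-numbered pairs of Rag1-KO p38-KO and Rag1-KO did (0.129 to 0.222), and with the block that comparison likewise called 0 members and 0 genes. With the 99th percentile of olfactory receptor genes 18 members were above background in every group, with vomeronasal receptor genes 22 and by every array 21. Leaving WT replicate 1 out of the CD8- comparison also brought Lats2 past the threshold (0.0424), and leaving Mst1/2-KO replicate 4 out Mob1b (0.0458). Signals near background, such as those of Amot, Ccn2 and Nt5e, limit the folds to lower bounds.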
